A study of Mus musculus with 6 samples.

Results

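The genes described here are 30 genes of the mouse amino acid response. They are 20 cytosolic aminoacyl-tRNA synthetases, 4 genes of the ATF4 pathway (Atf4, Ddit3, Trib3 and Chac1) and 6 genes of asparagine, serine and one-carbon synthesis (Asns, Psat1, Phgdh, Psph, Shmt2 and Mthfd2). They were chosen by name, and all 30 matched a symbol among the 33924 genes of the deposited count table. All 30 also passed the filter on low counts in every comparison.

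ATF4 is a transcription factor whose own mRNA is translated better when eIF2alpha is phosphorylated. The kinases that do this respond to uncharged tRNA (GCN2, gene Eif2ak4), unfolded protein in the endoplasmic reticulum (PERK, gene Eif2ak3), double-stranded RNA (PKR, gene Eif2ak2) or heme shortage (HRI, gene Eif2ak1). ATF4 pairs with C/EBP proteins and binds C/EBP-ATF response elements in genes for amino acid import, asparagine and serine synthesis and tRNA charging. The cytosolic synthetases join each amino acid to its tRNA for translation outside the mitochondrion, and a separate set of nuclear genes encodes most mitochondrial synthetases. Lymphoid leukemia cells are known for a low capacity to make asparagine, which is the basis of asparaginase treatment.

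RNA was sequenced from 3 groups of 2 libraries. Leukemia 1 and leukemia 92 were primary bone marrow leukemias of the genotype Mll-Af4/ N-RasG12D. Per the labels' protocols, lineage-depleted marrow of Mll-Af4 mice aged 6 to 8 weeks was sorted for c-Kit and Sca1 and kept overnight in lymphoid medium with mIL7, mSC7 and mFL at 20 ng/uL. These cells were transduced with an MSCV retrovirus for Cre and TdTomato, sorted for Tomato, and transduced again with the N-RasG12D vector. Irradiated recipients (900 rads) received 250000 such cells together with 200000 wild-type marrow cells, so host and helper marrow could still contribute cells. The third group was wild-type bone marrow pro-B cells, defined as B220+ CD43+ IgM-, and had no virus and no Mll-Af4 allele. An arm with the empty vector is described in the protocol and was not analysed here. The labels do not say whether replicates were separate animals, so a p-value may measure technical spread only. In bulk RNA, fewer cells of a type and less RNA per cell cannot be told apart.

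Gene counts summed to between 22153444 and 27444759 per library, and 3 counts in a library corresponded to 0.111 to 0.140 CPM (counts scaled to normalised library sizes). The SD of the log2 difference between replicates was 1.35 in leukemia 1, 0.42 in leukemia 92 and 0.38 in pro-B cells over 13930 genes, so the libraries of leukemia 1 stood apart from each other. Of 13 pro-B markers all were detected in every library except Dntt, which was at 0 in leukemia 92 replicate 2, and their summed level was 5278 to 6460 CPM. Dntt, the terminal transferase of early B cells, had 0 to 30 counts in the leukemia libraries and 26188 and 15497 in the pro-B libraries. The pro-B libraries also held 2622 and 2957 CPM of 7 plasmacytoid dendritic markers, against 316 to 397 CPM in leukemia, and 390 and 374 CPM of 10 T and NK cell markers, against 3.86 to 56.7 CPM. The part of these cells in the comparisons with pro-B cells was not tested. Replicate 2 of leukemia 1 also held 16640 CPM of 14 granulocyte markers and 1205 counts of 4 Y-linked genes, against 185 CPM and 121 counts in replicate 1. For that reason both leukemia 1 libraries are given apart below. The Y-linked genes had 0 and 6 counts in the leukemia 92 libraries and 0 and 0 in the pro-B libraries. The part of male cells in the comparisons with leukemia 1 was not tested.

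The letters TGATGNAA are the core of the C/EBP-ATF response element, where N is any base, and TTNCATCA is the same on the other strand. Windows of RefSeq promoters on GRCm38.p6, each from 250 bases before to 50 after a gene's start, were searched on both strands. A window was found for 23 of the 30 genes, and 8 of them held the letters (34.8%), against 4.51% of 27025 genes with a window. The 30 genes were chosen by name as genes of this response. A share above that of all genes may follow from the choice, so it is no test. The sequences below are shown because 5 synthetases, Trib3, Chac1 and Asns carried the element and because these genes are set beside the others in the libraries of leukemia 1. Each is 30 bases on the gene's strand from 5′ to 3′, with the matched letters in capitals. The match in Asns was written TGATGAAA and that in Yars TGATGCAA, and the other sequences had it in the reverse orientation.

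Aars, chr8:111033840-111033869, plus strand, first base 10 after the start: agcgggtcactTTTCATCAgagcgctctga
Gars, chr6:55037960-55037989, plus strand, first base 30 before the start: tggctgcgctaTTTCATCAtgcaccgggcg
Iars, chr13:49682126-49682155, plus strand, first base 8 after the start: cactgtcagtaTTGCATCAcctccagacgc
Tars, chr15:11399655-11399684, minus strand, first base 15 before the start: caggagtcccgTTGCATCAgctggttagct
Yars, chr4:129189895-129189924, plus strand, first base 4 after the start: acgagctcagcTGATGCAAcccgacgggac
Trib3, chr2:152344028-152344057, minus strand, first base 15 after the start: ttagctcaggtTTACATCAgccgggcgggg
Chac1, chr2:119351038-119351067, plus strand, first base 193 before the start: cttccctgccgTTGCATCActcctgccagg
Asns, chr6:7693214-7693243, minus strand, first base 23 before the start: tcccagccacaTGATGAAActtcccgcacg

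The matches shown for Aars, Gars, Iars, Tars, Yars, Trib3 and Asns lay within 30 bases of the annotated start, and the match in Chac1 lay farther upstream. By list, 5 of 13 synthetases with a window held the letters, 2 of 4 ATF4 pathway genes (Trib3 and Chac1) and 1 of 6 genes of asparagine and serine synthesis (Asns). None of 14 mitochondrial synthetases with a window did. A match describes these letters and is not a measured binding site.

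The first comparison asks how the leukemias differ from normal pro-B cells, with the 2 libraries of each leukemia summed so that 2 leukemias met 2 pro-B libraries. Sars, the seryl-tRNA synthetase, and Chac1, an enzyme that degrades glutathione, rose, and the other 28 genes did not pass the test. The test was edgeR's quasi-likelihood test, with a call at a Benjamini-Hochberg adjusted p under 0.05 over all 15280 genes tested. By that rule 9.54% of all genes were called higher and 10.7% lower, so 2 higher and 0 lower of 30 is no excess over the background. At an unadjusted p under 0.05 the numbers were 5 of the 30 and 5922 of all genes. The median log2 change of the 30 genes was 0.37, against 0.02 over all genes. In 15 of the 30, all 4 leukemia libraries lay above both pro-B libraries, and in 1, Psph, they lay below; over all genes these shares were 23.4% and 27.3%. Neither call held with every library left out in turn: without leukemia 1 replicate 1 the adjusted p of Sars was 0.0557, and without replicate 2 it was 0.0656 for Sars and 0.0647 for Chac1. Without either pro-B library edgeR called 0 genes of the whole table.

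Taken apart, the leukemias gave different sets of calls against the same pro-B libraries, which both comparisons share as controls. Both come from the same fit, in which the groups share the estimate of each gene's spread. The wide spread between the leukemia 1 libraries thus also enters the standard errors of leukemia 92. A gene that did not pass in leukemia 92 is therefore not shown to be unchanged there. In leukemia 1, 8 of the 30 genes rose and 0 fell: Asns, Atf4, Ddit3, Chac1, Mthfd2, Shmt2, Sars and Gars. Over all 14979 genes 9.55% were called higher and 10.7% lower. With the replicate number added to the fit as a block, Ddit3 (edgeR adjusted p = 0.0674), Chac1 (0.074), Sars (0.0685) and Gars (0.0723) were not called. None of the 8 calls held with every library left out in turn. With library sizes taken from total counts alone, the share of higher among called genes of leukemia 1 was 36.5%, against 47.1% in the normalised fit, and 7 of the 30 genes were called. In leukemia 92, Sars and Qars rose and Phgdh and Psph fell, and over all genes 14.7% were called higher and 16.7% lower. None of these calls held with every library left out in turn. With the replicate block, Qars (edgeR adjusted p = 0.0746) and Psph (0.0585) were not called in leukemia 92. In leukemia 92 the share of higher among called genes was 36.8% with total counts and 46.8% otherwise. The median log2 change of the 30 genes was 0.50 in leukemia 1, and in leukemia 92 it was 0.08, or -0.08 with total counts.

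The direct test of leukemia 92 against leukemia 1 called 3 of the 30 genes lower in leukemia 92 and 0 higher: Asns, Phgdh and Atf4. Over all genes 1.27% were called lower and 1.82% higher in this comparison. At an unadjusted p under 0.05 it gave 16 of the 30 and 3759 of 14979 genes. In 22 of the 30 genes both leukemia 92 libraries lay below both leukemia 1 libraries, against 25.8% of all genes, and in 2, Sars and Qars, both lay above, against 25.4% of all genes. The median log2 difference of the 30 genes was -0.48, against -0.08 over all genes. Without leukemia 1 replicate 1 these medians were -0.27 and -0.04, and without replicate 2 they were -0.61 and 0.02. With either left out leukemia 1 has 1 library, which is assumed to vary like the other groups. Without either leukemia 92 library, or either pro-B library, edgeR called 0 genes of the whole table.

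**Figure D1:**
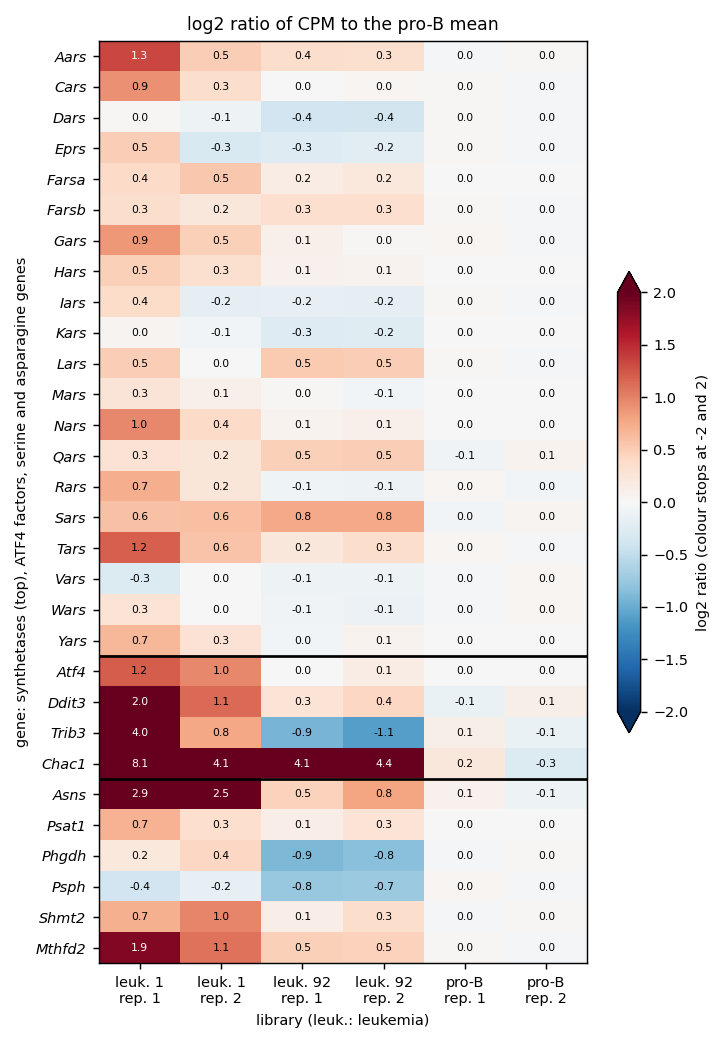
Heat map of the 30 genes (rows) in the 6 libraries (columns). Each cell gives the log2 ratio of the library's CPM to the mean of both pro-B libraries, with the colour scale ending at -2 and 2; the leftmost column, leukemia 1 replicate 1, is the highest of the 6 libraries for 21 of the 30 genes.

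Atf4, the transcription factor itself, measured 763 and 642 CPM in the leukemia 1 libraries, 331 and 364 CPM in those of leukemia 92 and 328 and 331 CPM in pro-B cells. Both leukemia 1 libraries were high, and those of leukemia 92 lay at the pro-B level. Its log2 change from pro-B cells was 1.09 in leukemia 1 (SE 0.14, edgeR adjusted p = 0.0104) and 0.08 in leukemia 92 (SE 0.13, adjusted p = 0.696, and -0.08 with total counts). The difference of leukemia 92 from leukemia 1 was -1.02 in log2 units (SE 0.14, adjusted p = 0.04). Since ATF4 is controlled mainly at translation, its mRNA level does not measure the protein.

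Ddit3 encodes CHOP, a C/EBP-family factor induced by ATF4. It measured 78.0 and 42.2 CPM in the leukemia 1 libraries, 23.3 and 25.5 CPM in those of leukemia 92 and 17.6 and 20.9 CPM in pro-B cells, without overlap between the groups. It rose in leukemia 1 by 1.64 in log2 units (SE 0.32, edgeR adjusted p = 0.0298). In leukemia 92 its change was 0.34 (SE 0.32, adjusted p = 0.456), and the test between the leukemias was not passed (log2 difference -1.30, SE 0.32, adjusted p = 0.0976).

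Trib3 encodes a pseudokinase that is induced by ATF4 and CHOP and dampens their activity. It stood at 44.3 CPM in leukemia 1 replicate 1 and 4.81 CPM in replicate 2, a ratio of 9.23. Leukemia 92 had 1.48 and 1.31 CPM and pro-B cells 3.07 and 2.57 CPM, so both leukemia 92 libraries were the lowest of the 6. Neither test of leukemia 1 passed (edgeR adjusted p = 0.103 for leukemia 1 against pro-B cells and 0.112 between the leukemias).

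Chac1, a gamma-glutamylcyclotransferase of the same pathway, gave the widest range of the 30 genes. Its counts were 624 and 45 in leukemia 1, 40 and 42 in leukemia 92, and 3 and 2 in pro-B cells, or 25.4 and 1.66, 1.65 and 1.96, and 0.111 and 0.0780 CPM. All 4 leukemia libraries were above both pro-B libraries, and 3 of them lay at one level with leukemia 1 replicate 1 far above. From the counts, the ratio to both pro-B libraries was 267 for leukemia 1 replicate 1 (95% exact interval 114 to 825, counting error only). It was 17.5 for replicate 2 (6.98 to 56.5) and 18.9 for leukemia 92 (7.77 to 59.7). Chac1 rose in leukemia against pro-B cells by a fitted 6.21 in log2 units (SE 1.32, edgeR adjusted p = 0.0472), a value that rests on 5 pro-B counts. Without leukemia 1 replicate 1 the fitted log2 change was 4.15 (adjusted p = 0.0264).

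**Figure D2:**
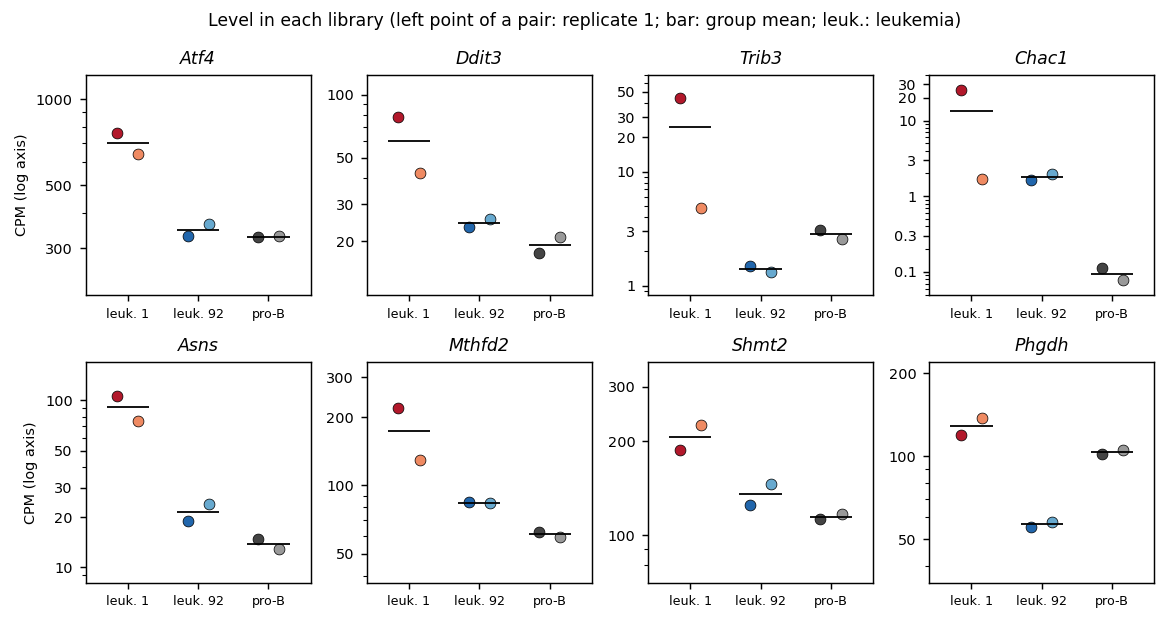
CPM of 8 of the genes in each library on a log axis, by group, with the left point of each pair for replicate 1 and a bar at the group mean. Leukemia 1 lies above the other groups for Atf4, Ddit3, Asns, Mthfd2 and Shmt2, leukemia 92 lies lowest for Phgdh and Trib3, and for Chac1 leukemia 1 replicate 2 lies with the leukemia 92 libraries.

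Among the biosynthetic genes, Asns, the asparagine synthetase, had the largest called change apart from Chac1. It measured 107 and 75.6 CPM in the leukemia 1 libraries, 19.1 and 23.9 CPM in those of leukemia 92 and 14.7 and 13.0 CPM in pro-B cells, with no overlap between any of the groups. It rose in leukemia 1 by 2.72 in log2 units (SE 0.24, edgeR adjusted p = 0.00548). In leukemia 92 the change was 0.64 (SE 0.23, adjusted p = 0.0955). The leukemias differed by -2.08 (SE 0.23, adjusted p = 0.0308), and the mean of leukemia 1 was 4.24 times that of leukemia 92.

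Serine is made from the glycolytic intermediate 3-phosphoglycerate by PHGDH, PSAT1 and PSPH in turn, and the 3 genes did not move together. Phgdh, the first step, measured 120 and 138 CPM in the leukemia 1 libraries, 55.5 and 57.7 CPM in those of leukemia 92 and 101.5 and 105 CPM in pro-B cells. It fell in leukemia 92 by 0.87 in log2 units (SE 0.13, edgeR adjusted p = 0.00956) and was 0.32 in leukemia 1 (SE 0.13, adjusted p = 0.141), and the leukemias differed by -1.19 (SE 0.13, adjusted p = 0.0291). Psph, the last step, measured 17.8 and 20.7 CPM in the leukemia 1 libraries, 13.8 and 13.9 CPM in those of leukemia 92 and 23.8 and 22.7 CPM in pro-B cells. It fell in leukemia 92 (log2 change -0.75, SE 0.16, adjusted p = 0.0236), and its change in leukemia 1 was -0.27 (adjusted p = 0.267). Psat1, the middle step, measured 333 and 261 CPM in the leukemia 1 libraries, 226 and 247 CPM in those of leukemia 92 and 204 and 207 CPM in pro-B cells, and passed in none of the 4 comparisons (adjusted p = 0.0766 to 0.373).

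SHMT2 and MTHFD2 are mitochondrial enzymes that pass the carbon of serine to folate. Shmt2 measured 188 and 226 CPM in the leukemia 1 libraries, 125 and 146 CPM in those of leukemia 92 and 112 and 117 CPM in pro-B cells. Mthfd2 measured 219 and 130 CPM in the leukemia 1 libraries, 84.3 and 83.4 CPM in those of leukemia 92 and 62.1 and 59.5 CPM in pro-B cells. In both genes the groups kept the order leukemia 1, leukemia 92, pro-B with no overlap. In leukemia 1 the log2 change was 0.85 for Shmt2 (SE 0.15, edgeR adjusted p = 0.0237) and 1.52 for Mthfd2 (SE 0.27, adjusted p = 0.024). In leukemia 92 neither passed (0.24, adjusted p = 0.284, and 0.46, adjusted p = 0.244), nor did the test between the leukemias (adjusted p = 0.0968 and 0.101).

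The 20 cytosolic synthetases attach amino acids to tRNA in the cytosol. In leukemia against pro-B cells 1 rose, Sars, 0 fell and 19 did not pass. Over all genes 9.54% were called higher and 10.7% lower, so this is no excess over the background. The median log2 change of the 20 was 0.29, with a range from -0.19 (Dars, the aspartyl-tRNA synthetase) to 0.69 (Sars). Sars measured 139 and 140 CPM in the leukemia 1 libraries, 157 and 156 CPM in those of leukemia 92 and 89.4 and 95.6 CPM in pro-B cells, so all 4 leukemia libraries lay above both others and the replicates of leukemia 1 were close. Its log2 change was 0.69 in leukemia (SE 0.14, edgeR adjusted p = 0.0451), 0.76 in leukemia 92 (adjusted p = 0.00965) and 0.59 in leukemia 1 (adjusted p = 0.0256). With total counts the adjusted p in leukemia was 0.0602, and without the filter that in leukemia 1 was 0.055. Qars, the glutaminyl-tRNA synthetase, measured 213 and 206 CPM in the leukemia 1 libraries, 243 and 245 CPM in those of leukemia 92 and 167 and 183 CPM in pro-B cells. It rose in leukemia 92 (log2 change 0.48, SE 0.11, adjusted p = 0.0325), a call lost with total counts (adjusted p = 0.0786) and without the filter (0.0781), and the other comparisons with pro-B cells did not pass (0.39, adjusted p = 0.16, and 0.26 in leukemia 1, adjusted p = 0.166). Gars encodes the glycyl-tRNA synthetase of both the cytosol and the mitochondrion. It measured 291 and 223 CPM in the leukemia 1 libraries, 171 and 163 CPM in those of leukemia 92 and 164 and 156 CPM in pro-B cells, and rose in leukemia 1 (log2 change 0.69, SE 0.16, adjusted p = 0.0461). This call was lost with DESeq2 size factors in edgeR (adjusted p = 0.0518), with total counts (0.0676) and without the filter (0.0838).

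Of the synthetases that did not pass, Aars, Tars and Nars, for alanine, threonine and asparagine, had fitted changes in leukemia 1 of 0.97 (SE 0.29, edgeR adjusted p = 0.0763), 0.92 (SE 0.23, adjusted p = 0.0515) and 0.70 (SE 0.21, adjusted p = 0.0815). In leukemia 92 their values were 0.34, 0.29 and 0.09, with adjusted p of 0.412, 0.378 and 0.777. Aars measured 328 and 184 CPM in the leukemia 1 libraries, 167 and 164 CPM in those of leukemia 92 and 129 and 132 CPM in pro-B cells. Tars measured 202 and 132 CPM in the leukemia 1 libraries, 104 and 113 CPM in those of leukemia 92 and 90.8 and 86.0 CPM in pro-B cells. In Aars and Tars all 4 leukemia libraries lay above pro-B cells, with leukemia 1 replicate 1 apart from the rest. Cars, Rars and Yars, for cysteine, arginine and tyrosine, had log2 changes of 0.66, 0.50 and 0.49 in leukemia 1 and 0.02, -0.09 and 0.01 in leukemia 92.

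The other synthetases covered a narrower range. Farsa and Farsb, the subunits of the phenylalanyl-tRNA synthetase, had log2 changes of 0.47 and 0.29 in leukemia 1 and 0.18 and 0.34 in leukemia 92. Hars, for histidine, and Mars, for methionine, had changes of 0.41 and 0.18 in leukemia 1 and 0.08 and -0.02 in leukemia 92. Lars, for leucine, was 0.27 in leukemia 1 and 0.51 in leukemia 92 (adjusted p = 0.36 and 0.102). Dars and Kars, for aspartate and lysine, were at -0.04 and 0.00 in leukemia 1 and -0.38 and -0.25 in leukemia 92, where both libraries lay below both pro-B libraries (adjusted p = 0.0621 and 0.147). Eprs, which encodes a fused enzyme for glutamate and proline, was at 373 and 216 CPM in leukemia 1, on either side of the pro-B libraries at 270 and 263 CPM. Iars, for isoleucine, was likewise at 207 and 139 CPM in leukemia 1 and at 161 and 158 CPM in pro-B cells. Vars and Wars, for valine and tryptophan, had changes of -0.13 and 0.13 in leukemia 1 and -0.10 and -0.09 in leukemia 92. Eprs and Iars had changes of -0.24 and -0.18 in leukemia 92. Both leukemia 92 libraries lay below both pro-B libraries for 7 of the 20 synthetases: Dars, Kars, Eprs, Iars, Rars, Vars and Wars. For 9 of the 20 both lay above. These shares were not computed over all genes.

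**Figure D3:**
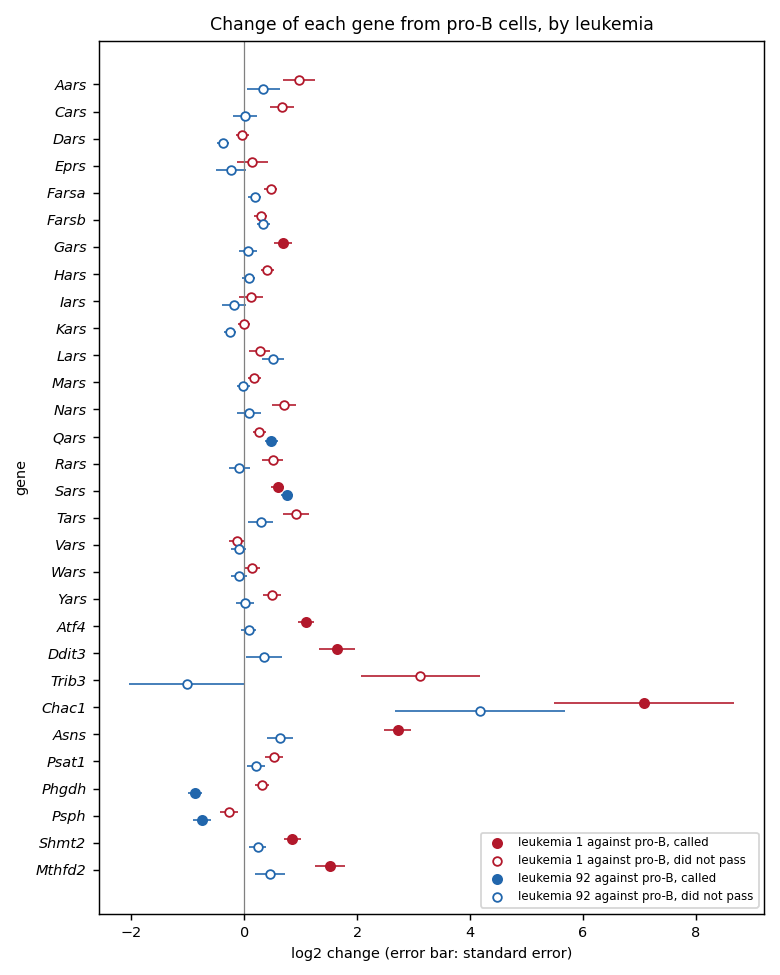
Log2 change of each of the 30 genes from pro-B cells in leukemia 1 (red) and leukemia 92 (blue), from the fit of all 6 libraries, with bars of 1 standard error and filled points for calls at an adjusted p under 0.05. The 8 filled red points are Gars, Sars, Atf4, Ddit3, Chac1, Asns, Shmt2 and Mthfd2, and the 4 filled blue points are Qars, Sars, Phgdh and Psph.

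The libraries of leukemia 1 differed in these genes, for which no test is possible with 1 library on each side. Replicate 1 was above replicate 2 in 24 of the 30 genes, among them 17 of 20 synthetases and all 4 ATF4 pathway genes, against 48.5% of 13930 genes. The median ratio was 1.29 over the 30 genes, 1.26 over the synthetases and 4.13 over the ATF4 pathway genes. The 6 genes higher in replicate 2 were Farsa, Sars, Vars, Phgdh, Psph and Shmt2, so the genes of asparagine and serine synthesis were divided, 3 in each direction. Replicate 1 was the highest of all 6 libraries for 21 of the 30 genes, against 23.8% of all genes. Within the other pairs the largest difference was in Chac1 for pro-B cells, at 0.51 on the log2 scale, and in Asns for leukemia 92, at -0.32. Summed CPM of 14 granulocyte markers was 185 in replicate 1 and 16640 in replicate 2, with none at 0 in either. Leukemia 92 had 818 and 463 CPM of these markers and pro-B cells 430 and 457 CPM. The 11 monocyte and macrophage markers summed to 543 and 2889 CPM in leukemia 1, to 2531 and 2036 CPM in leukemia 92, and 458 and 468 CPM in pro-B cells. The part of these cells in the difference was not tested.

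IRE1 and ATF6 head the arms of the endoplasmic reticulum stress response other than PERK. Of 18 genes of these arms, 6 were higher in replicate 1 of leukemia 1 and 12 in replicate 2, with a median log2 difference of -0.62; as given above, 48.5% of all genes were higher in replicate 1. Hspa5, the chaperone BiP, stood at 1427 and 3282 CPM in replicates 1 and 2, against 818 and 942 CPM in leukemia 92 and 958 and 939 CPM in pro-B cells. Pdia6, a disulfide isomerase, stood at 421 and 867 CPM, against 253 to 298 CPM in the other libraries. Both were chosen as examples after their values were seen. Of 17 genes of the eIF2alpha kinases and the eIF2 cycle, 15 were higher in replicate 1, with a median of 0.38. The PERK gene Eif2ak3 was at 308 CPM in replicate 1 and 189 CPM in replicate 2.

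**Figure D4:**
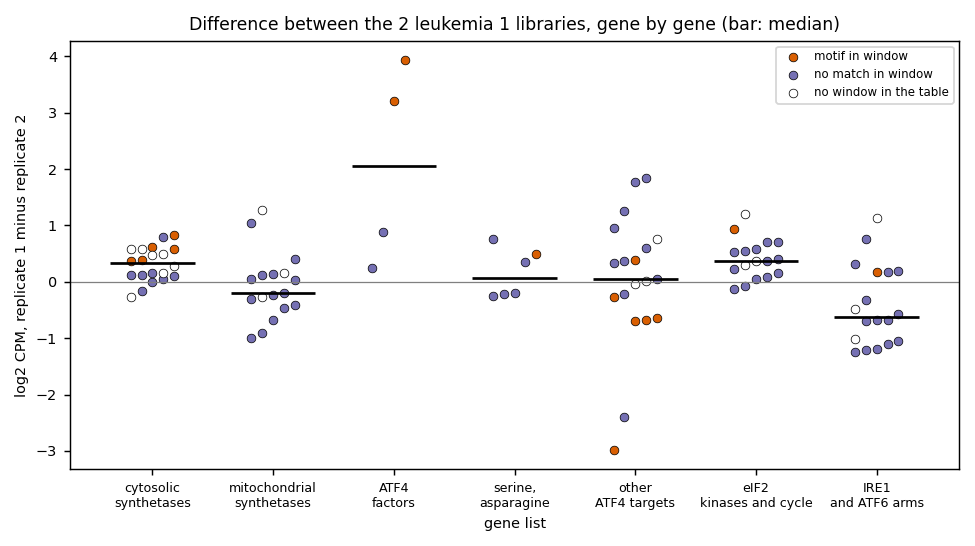
Log2 difference of CPM between replicates 1 and 2 of leukemia 1 for each tested gene of 7 lists, with a bar at the list's median and colour for the promoter letters. The 4 ATF4 pathway genes lie above 0 with a median of 2.05, and the genes of the IRE1 and ATF6 arms have a median of -0.62.

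The 8 genes with the promoter letters were all higher in replicate 1 of leukemia 1, with a median log2 difference of 0.60 and a range from 0.38 to 3.93. Of the 15 with a window and no match, 10 were higher, with a median of 0.12 and a range from -0.26 to 0.89. In the synthetases alone the medians were 0.57 for 5 genes with the letters and 0.11 for 8 without. The other 7 synthetases had no window, so whether they hold the letters is unknown. Of these 7, 6 were higher in replicate 1, with a median of 0.48, close to that of the genes with the letters. Among 19 tested ATF4 targets outside the 30 genes the order of genes with and without the letters was the reverse. There 1 of 6 genes with the letters was higher in replicate 1, with a median of -0.66, against 8 of 10 without, with a median of 0.48. The median change of leukemia 1 from pro-B cells was 0.94 for the 8 genes and 0.32 for the 15, and in leukemia 92 it was 0.18 for both. For the 7 genes with no window it was 0.41 in leukemia 1 and 0.02 in leukemia 92. Among the tested targets outside the 30 genes, the median change in leukemia 1 was 2.98 with the letters and 1.33 without. In leukemia 92 these medians were 2.20 and 0.90, so there the genes with the letters had the larger change. For the 3 outside targets with no window the medians were 1.43 and 0.56. These are descriptions of gene groups that share libraries, with no test.

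The mitochondrial synthetases charge tRNA for the translation of the mitochondrial genome. Of 17 tested in leukemia against pro-B cells, 0 rose and 2 fell, where 9.54% of all genes were called higher and 10.7% lower, a number of falls near the background. The median log2 change was -0.10, against 0.29 for the cytosolic list. Tars2, for threonine, measured 50.4 and 57.9 CPM in the leukemia 1 libraries, 43.8 and 46.8 CPM in those of leukemia 92 and 79.7 and 73.9 CPM in pro-B cells. All 4 leukemia libraries lay below both pro-B libraries, and Tars2 fell by 0.62 in log2 units (SE 0.13, edgeR adjusted p = 0.0464). Without leukemia 1 replicate 1, 0 of this list were called, and without replicate 2, 1 was. Between the replicates of leukemia 1, 8 of 17 were higher in replicate 1, with a median of -0.20. Of 9 genes of the synthetase complex and related factors, Eef1e1, a scaffold protein of the complex, rose (log2 change 0.70, SE 0.15, adjusted p = 0.0447). Dtd1, which removes D-amino acids from tRNA, fell (-1.08, SE 0.22, adjusted p = 0.0421). Neither was called without leukemia 1 replicate 1 or without replicate 2.

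Known ATF4 targets outside the 30 genes included several that were high in both leukemias. Of 24 such genes 19 were tested in leukemia against pro-B cells, 9 rose, 0 fell and 10 did not pass, where 9.54% of all genes were called higher and 10.7% lower, with a median log2 change of 1.45. The number was 3 without leukemia 1 replicate 1 and 6 without replicate 2. Cebpb, a partner of ATF4 that also marks myeloid cells, measured 19.6 and 22.85 CPM in the leukemia 1 libraries, 18.9 and 18.8 CPM in those of leukemia 92 and 1.26 and 1.40 CPM in pro-B cells (log2 change 3.92, SE 0.24, edgeR adjusted p = 0.00854). Jdp2, a factor of the AP-1 family, stood at 23.1 and 37.1 CPM, 23.3 and 22.0 CPM, and 2.48 and 2.30 CPM in the same order (log2 change 3.47, SE 0.24, adjusted p = 0.0101). The granulocyte and monocyte marker values given above differed between these libraries, and the part of such cells in these genes was not tested. Both leukemias were high in these genes and their replicates were close, apart from Jdp2 in leukemia 1. Between the leukemias 1 gene of this list was called: Eif4ebp1, which encodes the translation repressor 4E-BP1, was lower in leukemia 92 by 0.87 in log2 units (SE 0.12, adjusted p = 0.043). It measured 42.2 and 41.8 CPM in the leukemia 1 libraries, 22.6 and 23.2 CPM in those of leukemia 92 and 15.5 and 15.6 CPM in pro-B cells.

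Upstream of ATF4, 1 of 17 genes of the eIF2alpha kinases and the eIF2 cycle was called higher in leukemia and 1 lower, against 9.54% and 10.7% of all genes, which is no excess over the background. Eif2ak3 rose (log2 change 0.70, SE 0.14, edgeR adjusted p = 0.0407) and Eif2ak2 fell (-0.67, SE 0.13, adjusted p = 0.0391). Neither was called without leukemia 1 replicate 1, and Eif2ak2 was not without replicate 2. Eif2ak4, the GCN2 gene that senses uncharged tRNA, had a change of 0.19 (adjusted p = 0.36). Dnajc3, an inhibitor of PERK and PKR, was lower in leukemia 92 than in leukemia 1 by 0.79 (SE 0.11, adjusted p = 0.0432). Of 18 genes of the IRE1 and ATF6 arms, Edem1 (1.91, adjusted p = 0.015) and Sel1l (0.67, adjusted p = 0.0332), both of the degradation of misfolded protein, rose. Ern1, the IRE1 gene, fell from 88.1 and 103 CPM in pro-B cells to 19.2 to 21.9 CPM in the 4 leukemia libraries (-2.22, SE 0.14, adjusted p = 0.00854). Without leukemia 1 replicate 1 this list had 1 call in each direction, and without replicate 2 it had 3 higher and 2 lower. Herpud1 and Xbp1 were lower in leukemia 92 than in leukemia 1 by 1.31 (adjusted p = 0.0341) and 0.90 (adjusted p = 0.04); Xbp1 is also a plasma cell marker. The 6 plasma cell markers summed to 924 and 563 CPM in leukemia 1, 254 and 254 CPM in leukemia 92, and 630 and 723 CPM in pro-B cells, and their part was not tested.

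Folate carries the carbon that SHMT2 and MTHFD2 release, and aspartate and glutamine are the substrates of asparagine synthetase. Of 16 tested genes of folate metabolism 0 were called in leukemia against pro-B cells by edgeR. Before adjustment 6 of the 16 had a p under 0.05, as had 5922 of the 15280 genes tested, so 6 is no excess over the background. Their median log2 change was -0.36, against 0.02 over all genes. In leukemia 92 alone 1 rose and 8 fell, where 14.7% of all genes were called higher and 16.7% lower. Cycling markers, 10 genes that mark dividing cells, summed to 1514 and 1598 CPM in leukemia 92, 2354 and 2576 CPM in leukemia 1, and 4435 and 4263 CPM in pro-B cells, and their part was not tested. Aldh1l1, which oxidises a folate carrier, was lower in leukemia 92 than in leukemia 1 by 2.59 (SE 0.40, edgeR adjusted p = 0.0467). Of 7 tested genes of aspartate and glutamine metabolism, Glud1 (log2 change 0.81, SE 0.15, adjusted p = 0.0353) and Got1 (1.16, SE 0.23, adjusted p = 0.0423) rose, against 9.54% of all genes. GOT1 makes the aspartate that asparagine synthetase uses, and GLUD1 converts glutamate to alpha-ketoglutarate. Cad, which begins pyrimidine synthesis from aspartate and glutamine, fell by 0.64 (SE 0.12, adjusted p = 0.0376). In this list 1 gene was called higher and 0 lower without leukemia 1 replicate 1, and likewise without replicate 2.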

How the data were processed

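Total RNA was extracted with RNeasy, treated with DNase and made into TruSeq RNA libraries, per the labels' protocols. The deposited table holds raw counts, whole numbers of reads per gene and library. Per the submitters' processing notes, STAR 2.4, HTSeq 0.6.1, DESeq2 and mm9 were used, with no role or order given. No source used here gives the annotation or whether counting used strand, so overlapping genes and near-identical copies may share or lose reads. Entries that name no gene held 34.0% to 39.6% of a library's entries and were left out.

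The tests ran in edgeR 4.0.16 (R 4.3.3). Genes were kept by filterByExpr at a minimum count of 10, library sizes were normalised by TMM, and calls came from the robust quasi-likelihood test with Benjamini-Hochberg adjustment over all genes tested and a threshold of 0.05. Leukemia against pro-B cells used the libraries of each leukemia summed. The other 3 comparisons used 1 fit of 6 libraries in 3 groups, which share the estimate of each gene's spread. The standard error came from the F statistic. CPM uses the TMM library sizes. Intervals and floors cover counting error only. Replicate pairs were compared by chi-square and differed by more than sampling noise, so no library was counted as a duplicate. The pipeline was tested on simulated data. The alternatives were DESeq2 1.42.0, other normalisations, no filter, each library left out, a replicate block and, for leukemia against pro-B cells, the mean of both leukemias in the 3-group fit.

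All 30 genes are named. Of every other list, up to 2 called genes in each direction with the smallest p were named, in leukemia against pro-B cells and then in leukemia 92 against leukemia 1; Eif2ak4, Hspa5, Pdia6 and the marker genes fall outside this rule and were chosen after their values were seen. The members, the lists and the rule were chosen with earlier results of these data known. Of the lists, Pc and the marker Ahsp matched no symbol. Promoter windows came from RefSeq on GRCm38.p6, a build other than that of the counts, and were matched by symbol, with no coordinates carried between builds. A gene that the rule names and a sequence are not reported here.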

Additional observations from a re-analysis of the deposited data

Results flagged for a closer look

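In 3 of the 30 genes the change from pro-B cells differed between the leukemias by the test of that difference, leukemia 92 against leukemia 1 in edgeR's fit of 6 libraries. The log2 difference was -1.02 for Atf4 (adjusted p = 0.04), -2.08 for Asns (adjusted p = 0.0308) and -1.19 for Phgdh (adjusted p = 0.0291). For Atf4 leukemia 92 lay near the pro-B level and leukemia 1 above it. For Asns both leukemia 92 libraries lay above pro-B cells without passing the test (log2 change 0.64, edgeR adjusted p = 0.0955), and leukemia 1 lay higher still. For Phgdh leukemia 92 lay below pro-B cells and leukemia 1 at or above them. Without leukemia 1 replicate 1 the differences were -0.88, -1.81 and -1.27, and without replicate 2 they were -1.13, -2.31 and -1.08, so the size did not rest on one of these libraries. Without a leukemia 92 or a pro-B library none of the 3 was called.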

How the results depend on the processing

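Calls among the 30 genes are few and depend on the fit. In leukemia against pro-B cells (2 higher, 0 lower), DESeq2 called 5 higher, total counts 1, the mean of both leukemias in the 3-group fit 7 higher and 1 lower, and leaving out libraries 0 to 2 higher. In leukemia 92 (2 higher, 2 lower), DESeq2 called 4 and 4, total counts 1 and 4, no filter 1 higher, and leaving out libraries 0 to 13 higher and 0 to 7 lower. In leukemia 1 (8 higher, 0 lower), DESeq2 called 16 higher, and leaving out libraries gave 0 to 25 higher and 0 to 2 lower. Between the leukemias (0 higher, 3 lower in leukemia 92), DESeq2 called 9 lower, and leaving out libraries gave 0 to 2 higher and 0 to 24 lower. Where a group is left with 1 library, that library is assumed to vary like the other groups. For leukemia 92, leukemia 1 and the test between them, the highest of these counts came from fits without a leukemia 1 library. Those fits also called far more genes of the whole table than the full fit, so the high counts are not particular to the 30 genes. Over all 15280 genes, DESeq2 called 2335 higher and 2434 lower in leukemia, against 1458 and 1631 by edgeR. Over the 14979 genes of the other comparisons, DESeq2 called 2798 and 3190 in leukemia 92, against 2198 and 2498 by edgeR. For leukemia 1 these numbers were 2286 and 2269, against 1431 and 1607. For leukemia 92 against leukemia 1 they were 1303 and 1299, against 273 and 190. The cause of these differences was not tested.

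Same-numbered replicates did not deviate together (correlations of -0.131, 0.0501 and -0.0171 between the groups), so the numbers are not taken to pair the samples. With the replicate block 4 of the 30 genes were called higher in leukemia, 1 higher and 1 lower in leukemia 92, 4 higher in leukemia 1, and 0 between the leukemias. Of all 14979 genes the block called 1448 higher and 1925 lower in leukemia, and 1538 and 1597 in leukemia 92. It called 701 and 738 in leukemia 1, and 0 between the leukemias. The crossed pairing of leukemia 92, an alternative added after the data were seen, called 0 genes between the leukemias.

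Of the 1380 values of single genes under an alternative, 36 changed sign, and 0 of these belonged to a called gene. With total counts the median log2 change of all genes moved from 0.02 to -0.14 in leukemia, from -0.04 to -0.19 in leukemia 92 and from 0.05 to -0.10 in leukemia 1. In that setting Mars was at -0.068 and Wars at -0.13 in leukemia. In leukemia 92 Cars was at -0.14, Gars at -0.094, Hars at -0.077, Nars at -0.068, Yars at -0.15 and Atf4 at -0.079, all above the median of all genes. In leukemia 1 Eprs was at -0.011, Iars at -0.039 and Wars at -0.018. Without the filter Cars was at -0.022 and Yars at -0.030 in leukemia 92. With single libraries left out the log2 change of leukemia ranged from -0.032 to 0.095 for Wars, -0.25 to 0.16 for Eprs and -0.17 to 0.12 for Iars. In leukemia 92 the ranges were -0.035 to 0.037 for Cars, -0.084 to 0.019 for Yars, -0.019 to 0.097 for Gars and -0.027 to 0.099 for Atf4. In leukemia 1 they were -0.31 to 0.44 for Eprs, -0.21 to 0.33 for Iars, -0.0054 to 0.45 for Lars, -0.024 to 0.23 for Wars and -0.061 to 0.0048 for Kars. Between the leukemias they were -0.72 to 0.074 for Eprs, -0.55 to 0.027 for Iars, -0.090 to 0.17 for Vars, -3.81 to 0.12 for Chac1 and -0.011 to 0.12 for Farsb. The value of 0.12 for Chac1 came without leukemia 1 replicate 1.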
